A study of Arabidopsis thaliana with 4 samples.

Results

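Heat shock transcription factors (HSFs) are the proteins that switch on chaperone genes when a plant cell is heated. The 10 described here were chosen by locus identifier from the 33557 genes of the deposited tables: HSFA1A (AT4G17750), HSFA1B (AT5G16820), HSFA1D (AT1G32330), HSFA1E (AT3G02990), HSFA2 (AT2G26150), HSFA3 (AT5G03720), HSFA7A (AT3G51910), HSFA7B (AT3G63350), HSFB1 (AT4G36990) and HSFB2A (AT5G62020). All 10 are in both tables. RNA was extracted from whole seedlings of Arabidopsis thaliana at 14 days, with 2 libraries of hdp3-2 and 2 of asil1-2, and each mutant was compared by the authors with Col-0. HDP3 derives from a Harbinger transposase and ASIL1 is a transcription factor of the trihelix family, and the question was whether both act on a shared set of genes. Per the labels, seeds spent 3 days at 4 °C and seedlings then grew at 22 °C with 16 h of light on half-strength MS agar with 2% sucrose. Each mutant is represented by a single allele. The labels do not state the lesions, and the library titles spell the first allele hpd3-2. The Col-0 libraries, also from seedlings of this age, belong to a separate series and were not analysed here one by one. Their number and growth conditions are not known from the labels. A difference in growth, harvest, library preparation or sequencing between the mutants and wild type therefore cannot be told apart from the genotype.

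In plants the HSFA1 proteins are present before stress and act as the master regulators of the heat response. When unfolded protein draws chaperones such as HSP70 and HSP90 away from them, they bind heat shock elements, repeats of GAA and TTC, and activate chaperone genes together with the genes of further HSFs. HSFA2, one of those induced factors, prolongs and strengthens the response, HSFA3 is activated through DREB2A, and HSFA7A and HSFA7B are heat-induced class A members. The class B factors HSFB1 and HSFB2A lack the activation domain of class A and act mainly as repressors, and HSFB1 is itself heat-induced.

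The heat shock elements upstream of these genes are shown first. Of the 3 members with a three-unit element, HSFA2 and HSFA7A rose in both mutants and HSFA7B was not tested. Whether the elements had a part in the increases was not tested. A window of 250 bases before the annotated gene start was searched on both strands for units GAA and TTC in alternation with NN, any 2 bases, between them. The three-unit element is GAA, NN, TTC, NN, GAA, or its reverse complement TTC, NN, GAA, NN, TTC. The two-unit elements are GAA, NN, TTC and TTC, NN, GAA, both of which also lie inside every three-unit match. Sequences and positions are from RefSeq on TAIR10.1, counted from 1. The windows below are those of the 3 members with a three-unit element, written 5′ to 3′ on the strand of the gene, and capitals mark the matched elements. For HSFA2 only the 158 bases that lie outside the neighbouring gene AT2G26140 are shown, at chr2:11135466-11135623, plus strand. HSFA7A is shown at chr3:19264891-19265140 and HSFA7B at chr3:23398986-23399235, both on the plus strand.
HSFA2: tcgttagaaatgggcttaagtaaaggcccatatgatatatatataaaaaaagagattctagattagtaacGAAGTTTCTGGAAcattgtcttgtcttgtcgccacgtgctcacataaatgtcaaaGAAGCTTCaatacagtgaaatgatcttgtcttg
HSFA7A: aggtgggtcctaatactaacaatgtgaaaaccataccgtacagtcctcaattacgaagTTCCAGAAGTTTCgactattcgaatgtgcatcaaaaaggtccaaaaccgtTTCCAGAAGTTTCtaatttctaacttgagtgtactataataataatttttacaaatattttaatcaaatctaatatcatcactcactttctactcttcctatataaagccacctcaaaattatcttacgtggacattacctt
HSFA7B: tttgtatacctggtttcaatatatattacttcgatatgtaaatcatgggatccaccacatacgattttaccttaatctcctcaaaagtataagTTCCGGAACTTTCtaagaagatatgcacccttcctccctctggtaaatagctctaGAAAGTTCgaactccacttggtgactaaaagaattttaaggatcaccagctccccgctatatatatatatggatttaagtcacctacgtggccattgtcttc

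The three-unit element was present once in the HSFA2 window, at positions -88 to -76 from the gene start, as GAAGTTTCTGGAA. HSFA7A carried it as 2 copies with the same 13 letters, TTCCAGAAGTTTC, at positions -192 to -180 and -142 to -130. HSFA7B carried TTCCGGAACTTTC at positions -157 to -145. HSFA2 and HSFA7B each had 1 further two-unit match, nearer to the gene start. Of all 27443 protein-coding genes with a full window on chromosomes 1 to 5, 106 or 0.386% held the three-unit element, and 3 of the 10 HSF genes did. A two-unit element was found in 16.1% of all windows and in 4 of the 10, the fourth being HSFA1E with TTCTGGAA at positions -44 to -37. No match was found in the windows of HSFA1A, HSFA1B, HSFA1D, HSFA3, HSFB1 and HSFB2A. Among 21 target genes of HSFs, 4 windows held the three-unit element and 14 a two-unit element. Carrying an element and being called coincided only in part there. Of the 4 carriers of the three-unit element, AT1G71000 rose in hdp3-2, while HSP17.6C, HSP17.4 and GOLS1 were not called. HSP17.6C and HSP17.4 stood 108-fold and 79.99-fold above wild type in hdp3-2, and GOLS1 lay below it. The targets HSP101, HSP90.1, HSP70 and HSP22.0 rose in hdp3-2 without a match, and the other called targets had a two-unit element. Several windows, among them those of HSP101 and HSP90.1, overlap a neighbouring gene. Since the members were chosen with earlier results known, these shares are a description, and a match is a run of letters, not a measured binding site.

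**Figure D1:**
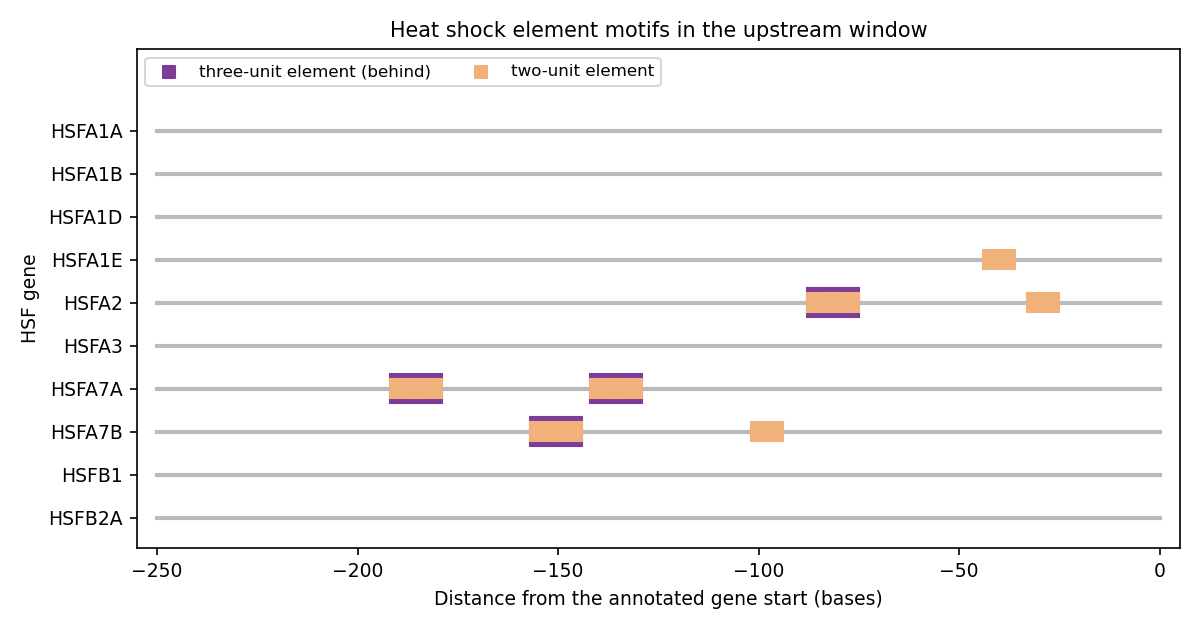
Positions of heat shock element matches in the 250 bases before the annotated start of each of the 10 HSF genes (x axis, distance from the gene start in bases; 1 row per gene, with purple boxes for three-unit matches and orange boxes for two-unit matches drawn over them). Three-unit matches lie in HSFA2, HSFA7A and HSFA7B, and HSFA1E has 1 two-unit match.

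The deposited tables hold 1 FPKM value (fragments per kilobase of transcript, scaled to the number of fragments sequenced) per gene and genotype, with the authors' test statistic, p and q, and nothing per library. Depth is therefore unknown and a level has no error of its own. Replicate spread is reflected in the authors' statistic alone. The words called, rose and fell are kept for genes with an authors' q under 0.05. Log2 fold changes are mutant over wild type from the FPKM values, and their standard error (SE) is the fold change divided by the statistic. As a check of the labels, ASIL1 (AT1G54060) stood at 4.16 FPKM in asil1-2, against 22.9 FPKM in wild type, with q = 0.00165 in the authors' deposited table. The files pair no locus with the name HDP3, so the hdp3-2 label has no such check. Green-tissue marker genes (RBCS1A, RCA, CAB2) lay between 5290 and 11044 FPKM in the mutants and between 5501 and 9307 FPKM in wild type, and no seed or flower marker passed 2.099 FPKM in any genotype. The median log2 fold change of tested genes was -0.06 in hdp3-2 and -0.08 in asil1-2, and FPKM values summed to 4.47e+06 in hdp3-2 against 1.46e+06 in wild type (2.11e+06 and 1.46e+06 without organelle genes). In asil1-2 they summed to 1.40e+06 against 1.48e+06 in wild type (1.14e+06 and 1.48e+06 without organelle genes). Organelle genes thus made up more of the sum in both mutants than in wild type. Leaving them out changed the wild-type sum set beside hdp3-2 only from 1.4573e+06 to 1.4565e+06. Without them the sum lay above wild type in hdp3-2 and below it in asil1-2. The part of this difference in the HSF values was not tested. The wild-type values of the hdp3-2 table are 0.982 times those of the asil1-2 table, so each mutant is set beside the wild type of its own table.

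In hdp3-2 seedlings HSFA2 and HSFA7A rose and HSFB1 fell, while the 4 HSFA1 genes, HSFA3 and HSFB2A were not called. Thus 2 of the 9 tested members rose and 1 fell, where 1.30% of all 20177 tested genes rose and 1.78% fell. HSFA7B, the remaining member, was too low to be tested. The median log2 fold change of the 9 tested members was 0.18. In whole-seedling RNA, more or fewer cells of a type and more or less RNA per cell cannot be told apart.

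In asil1-2 seedlings HSFA2 and HSFA7A rose as well and no member fell. That is 2 of 9 tested members higher and 0 lower by the authors' Cuffdiff test, where 2.71% of all 20205 tested genes rose and 5.72% fell. An unadjusted p under 0.05 was reached by 4 members in asil1-2 and by 3 in hdp3-2. The share of all tested genes at that level was not computed, so these counts have no baseline. The median of the 9 members was -0.09. Of 3 root marker genes, 2 (PRP3 and NRT2.1) rose in asil1-2, where the 3 summed to 38.5 FPKM, against 18.5 FPKM in wild type, and none was called in hdp3-2, where they summed to 20.1 FPKM, against 18.18 FPKM. Their part in the HSF values was not tested. Both comparisons share the same wild-type libraries, so they are not independent of each other.

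**Figure D2:**
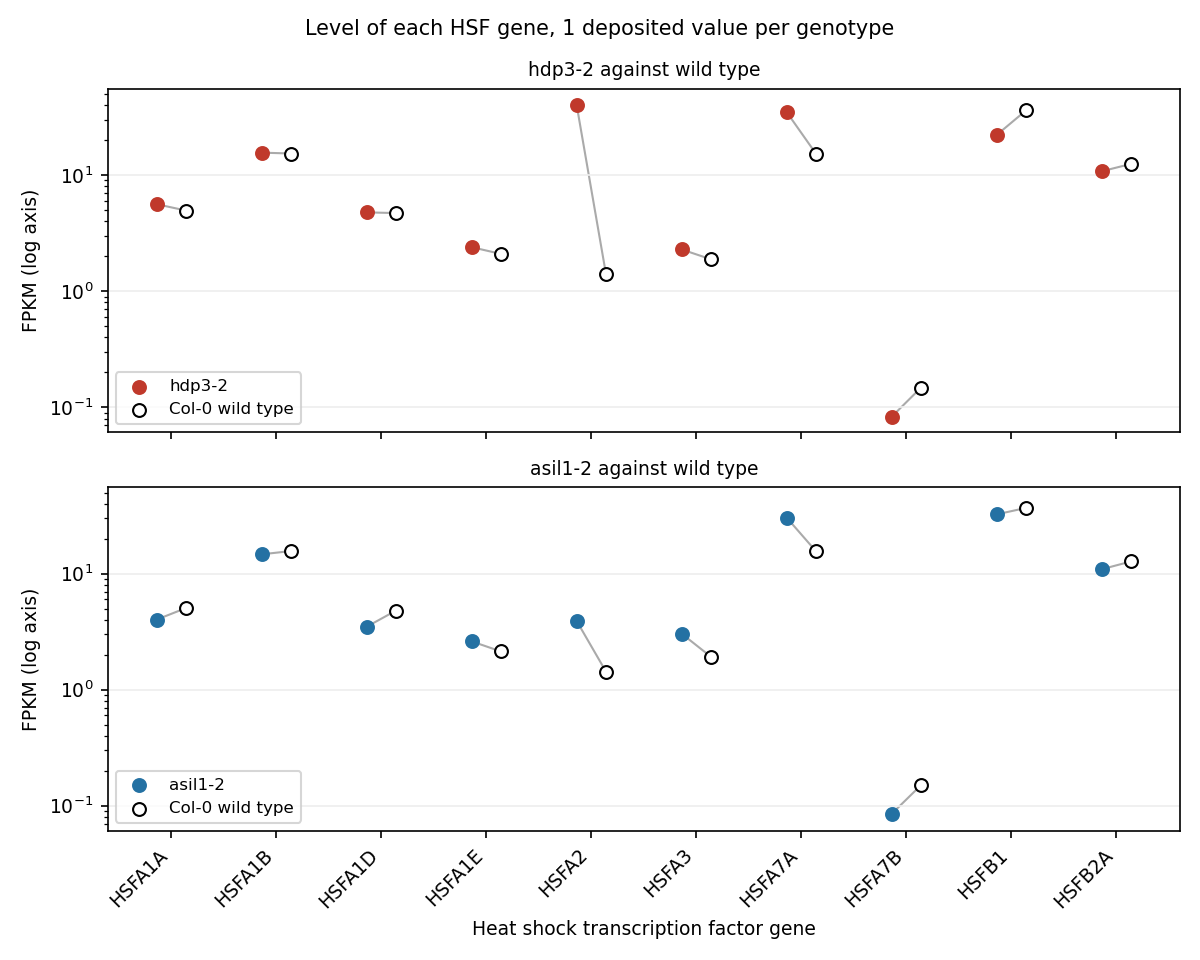
FPKM on a log axis (y) of the 10 HSF genes (x) in hdp3-2 (red, upper panel) and asil1-2 (blue, lower panel), each with the Col-0 value of its own table (open circles), 1 deposited value per point and no error available. HSFA2 stands at 40.6 FPKM in hdp3-2 and 3.92 FPKM in asil1-2, above its wild-type value of 1.41 or 1.43 FPKM, and HSFA7B lies lowest in every genotype.

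The HSFA1 genes come first in the pathway, and none of the 4 was called in either mutant. HSFA1B, the most abundant of them, had 15.6 FPKM in hdp3-2, against 15.4 FPKM in wild type, while it had 14.7 FPKM in asil1-2, against 15.66 FPKM in the wild type of that table. Its log2 fold changes were 0.02 ± 0.42 (SE) in hdp3-2 and -0.09 ± 0.37 (SE) in asil1-2. HSFA1B shares a locus span with the gene AT5G16830 on the opposite strand, and the labels do not say whether the libraries kept strand, so its level is less certain. HSFA1A had 5.63 FPKM in hdp3-2, against 4.96 FPKM in wild type, while it had 4.01 FPKM in asil1-2, against 5.05 FPKM in wild type. HSFA1D had 4.78 FPKM in hdp3-2, against 4.71 FPKM in wild type, while it had 3.48 FPKM in asil1-2, against 4.80 FPKM in wild type. Both lay above wild type in hdp3-2 and below it in asil1-2 without passing the test in either. The lowest of the 4, HSFA1E, had 2.40 FPKM in hdp3-2, against 2.096 FPKM in wild type, while it had 2.61 FPKM in asil1-2, against 2.14 FPKM in wild type.

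The SE of the HSFA1 log2 fold changes sets how large a change could have gone uncalled. In hdp3-2 the 95% intervals reached from -0.53 to 0.89 for HSFA1A, from -0.80 to 0.85 for HSFA1B, from -0.68 to 0.73 for HSFA1D and from -0.67 to 1.06 for HSFA1E. In asil1-2 they reached from -0.99 to 0.33, from -0.82 to 0.63, from -1.12 to 0.19 and from -0.48 to 1.06, in the same order. These intervals allow changes of up to about the size seen for HSFA7A, so an unchanged level is not shown. They rest on the SE from the statistic, which for all 4 genes is wider than that from the authors' p. They may therefore overstate the size that could have gone uncalled. The value nearest to a call was that of HSFA1D in asil1-2, at -0.46 ± 0.33 (SE), with p = 0.04985 and q = 0.248 in the authors' deposited table. Summed over the 4 genes, HSFA1 transcripts came to 28.4 FPKM in hdp3-2 and 27.1 FPKM in wild type, and to 24.8 FPKM in asil1-2, against 27.7 FPKM in wild type.

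HSFA2, the factor that sustains the heat response, showed the largest change among the 10 genes in both mutants. Its level was 40.6 FPKM in hdp3-2 and 1.41 FPKM in wild type, a 28.9-fold increase. In asil1-2 it was 3.92 FPKM against 1.43 FPKM in wild type, a 2.74-fold increase. The log2 fold change of HSFA2 was 4.85 ± 0.43 (SE) in hdp3-2, with q = 0.00374 in the authors' deposited table, and 1.45 ± 0.43 (SE) in asil1-2, with q = 0.00165. Among called genes with at least 1 FPKM in either genotype and a level above 0 in both, it ranked 3 of 613 by fold change in hdp3-2 and 78 of 1695 in asil1-2. Both values carry the smallest p of the tables, 5e-05, which 270 genes share in hdp3-2 and 613 in asil1-2, so p does not rank them further. With 1 FPKM added to each value, which damps changes of low genes, the log2 fold changes of HSFA2 were 4.11 in hdp3-2 and 1.02 in asil1-2. RefSeq annotates HSFA2 on chromosome 2 from 11135624 to 11137792 with 4 mRNAs, while the authors' locus runs from 11135682 to 11137396. The tables give no values per transcript.

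Whether the HSFA2 increase differed in size between the mutants depended on the SE used. The log2 fold change in hdp3-2 exceeded that in asil1-2 by 3.40 ± 0.61 (SE), with a 95% interval from 2.20 to 4.59 (z test per gene on the SE from the authors' statistics, Benjamini-Hochberg adjusted p = 4.75e-05). That test called 26 of 19977 genes, or 0.130%, and HSFA2 was the only one of the 9 testable members among them. With the SE taken from the authors' p instead, an alternative chosen after seeing the data, the difference had an SE of 1.25 and an adjusted p of 0.473, and 0 members were called. The SE of HSFA2 in hdp3-2 is then 1.20 in place of 0.43. Since no p in the tables is below 5e-05, an SE from p can only be an upper limit for a gene at that value, as HSFA2 is in both tables. For HSFA7A the difference was 0.23 ± 0.43 (SE), with an interval from -0.61 to 1.07, and for HSFB1 it was -0.52 ± 0.37 (SE), with an interval from -1.25 to 0.21. The other 6 members had differences from -0.38 to 0.51. Because wild type enters both fold changes, the summed variance overstates the error of the difference, so smaller differences could be missed.

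**Figure D3:**
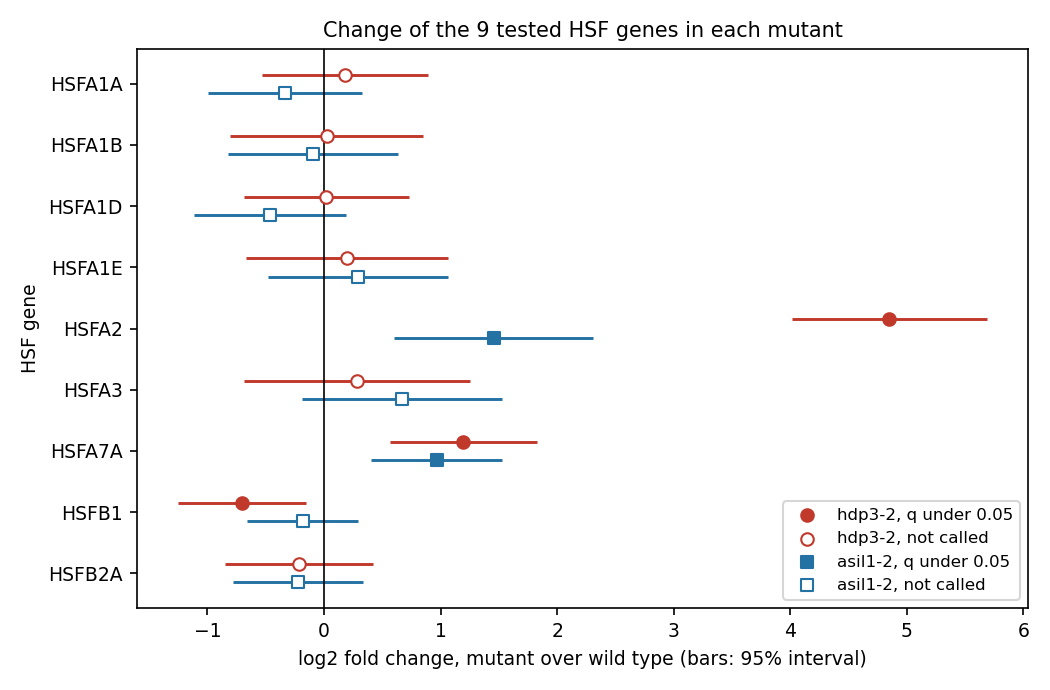
Log2 fold change over wild type (x) of the 9 tested HSF genes (rows) in hdp3-2 (red circles) and asil1-2 (blue squares), with 95% intervals from the authors' statistic as bars and filled symbols for q under 0.05. HSFA2 at 4.85 and 1.45 and HSFA7A at 1.20 and 0.97 are filled in both mutants, HSFB1 at -0.71 is filled in hdp3-2, and the intervals of all HSFA1 genes include 0.

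HSFA7A, a heat-induced class A factor, had 35.0 FPKM in hdp3-2 and 15.3 FPKM in wild type, a 2.29-fold increase. In asil1-2 it had 30.4 FPKM against 15.6 FPKM in wild type, a 1.95-fold increase. Its log2 fold change was 1.20 ± 0.32 (SE) in hdp3-2 and 0.97 ± 0.29 (SE) in asil1-2, with q = 0.00374 and q = 0.00165 in the authors' deposited tables. Unlike HSFA2, HSFA7A was already among the more abundant members in wild type, where it was the third highest of the 10. The authors' model of HSFA7A, on chromosome 3 from 19265294 to 19266619, spans the coding part only, so its FPKM rests on coding sequence. Its relative HSFA7B was close to 0 throughout, with 0.0827 FPKM in hdp3-2, against 0.148 FPKM in wild type, while it had 0.0850 FPKM in asil1-2, against 0.151 FPKM in wild type. HSFA7B was not tested in either table although its upstream window, like that of HSFA7A, holds a three-unit element.

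HSFA3, the class A factor downstream of DREB2A, had 2.29 FPKM in hdp3-2, against 1.88 FPKM in wild type, while it had 3.04 FPKM in asil1-2, against 1.92 FPKM in wild type. Its log2 fold changes were 0.28 ± 0.49 (SE) in hdp3-2 and 0.67 ± 0.44 (SE) in asil1-2. The value of HSFA3 in asil1-2 had p = 0.0341 but q = 0.199 in the authors' deposited table and was not called. On the SE from the statistic, the 95% interval in asil1-2 ran from -0.19 to 1.52. That SE is wider than the one the authors' p implies (0.44, against 0.31), so the interval spans 0 although p is under 0.05. HSFA3 overlaps the gene AT5G03710 of the opposite strand in RefSeq, though not in the authors' loci.

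Of the class B repressors, HSFB1 fell in hdp3-2, to 22.2 FPKM against 36.2 FPKM in wild type, a level 1.63-fold lower. Its log2 fold change was -0.71 ± 0.28 (SE), with a 95% interval from -1.26 to -0.15. The call lies just inside the threshold, with q = 0.0487 in the authors' deposited table, and it ended at q under 0.01, with a 2-fold minimum and when the statistic was read as a normal z. In asil1-2 HSFB1 had 32.4 FPKM and wild type 36.8 FPKM, with a log2 fold change of -0.18 ± 0.24 (SE) that was not called. HSFB2A had 10.8 FPKM in hdp3-2, against 12.5 FPKM in wild type, while it had 10.9 FPKM in asil1-2, against 12.7 FPKM in wild type. Its log2 fold changes were -0.21 ± 0.32 (SE) and -0.22 ± 0.29 (SE), neither of them called.

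The order of the members by level differed between genotypes. In hdp3-2 HSFA2 was the highest of the 10, followed by HSFA7A, HSFB1 and HSFA1B. The order in asil1-2 was HSFB1, HSFA7A, HSFA1B and HSFB2A, with HSFA2 in place 6. In wild type HSFB1 was the highest, followed by HSFA1B, HSFA7A and HSFB2A, and HSFA2 ranked 9 of 10. HSFA2 exceeded HSFB1 1.83-fold in hdp3-2, whereas it was 8.26-fold below HSFB1 in asil1-2 and 25.7-fold below it in wild type. Neighbours in these orders cannot be separated statistically, because single levels have no error.

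As shares of the FPKM summed over the 10 genes, HSFA2 made up 29.1% in hdp3-2, 3.71% in asil1-2 and 1.49% in wild type. The class B genes together made up 23.7% in hdp3-2, 41.03% in asil1-2 and 51.5% in wild type. The 4 HSFA1 genes made up 20.4% in hdp3-2, 23.46% in asil1-2 and 28.7% in wild type. Their sum moved by less than that of the other groups, so the lower share in hdp3-2 stands beside a larger total of 139.4 FPKM, against 94.6 FPKM in wild type. The total in asil1-2 was 105.6 FPKM, against 96.3 FPKM in its wild type.

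The other 11 HSF genes complete the family, and none was called in either mutant. By the authors' Cuffdiff test 0 of 8 tested were called in either mutant, where 3.08% (hdp3-2) and 8.42% (asil1-2) of all tested genes were. With 8 genes, a count of 0 is near those shares. The count was also 0 with the statistic read as a normal z. No share of all genes was computed at an unadjusted p under 0.05, which 1 gene reached in hdp3-2 and 2 genes in asil1-2. Named here after their values were seen, these were HSFA8 in hdp3-2 (0.50 ± 0.36, SE, log2 fold change, 8.01 FPKM against 5.65 FPKM in wild type) and HSFA4A and HSFA4C in asil1-2 (-0.48 ± 0.27 and -0.47 ± 0.27, SE). The median log2 fold change was 0.16 in hdp3-2 and -0.14 in asil1-2. HSFA9, the seed-maturation member, was listed at 0 in every genotype, and HSFA6A and HSFA6B, induced by salt and drought, stayed under 0.33 FPKM. The three-unit element was found in 0 of these 11 windows, and a two-unit element in that of HSFA4A.

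Among 11 genes whose products regulate or accompany HSFs, 4 rose in hdp3-2 and 0 fell, and 1 rose in asil1-2. Of all tested genes, 1.30% rose in hdp3-2 and 2.71% in asil1-2. ROF2 (AT5G48570), an immunophilin of the FKBP family linked to HSFA2 function, had 77.8 FPKM in hdp3-2, against 6.19 FPKM in wild type, while it had 12.1 FPKM in asil1-2 against 6.31 FPKM. Its log2 fold changes were 3.65 ± 0.31 (SE) and 0.93 ± 0.27 (SE), and it was the 1 gene of the 11 to be called in both mutants. HSP90.2 (AT5G56030), a cytosolic chaperone that holds HSFs in check, rose to 176.1 FPKM in hdp3-2, against 81.3 FPKM in wild type. ROF1 (AT3G25230), which binds HSP90 and HSFA2, rose by 0.71 ± 0.28 (SE) in log2 in hdp3-2, and DREB2A (AT5G05410), the activator of HSFA3, by 0.79 ± 0.35 (SE). DREB2A passed narrowly, with q = 0.0456 in the authors' deposited table. MBF1C (AT3G24500), a heat-induced coactivator chosen after its value was seen, had 135.03 FPKM in hdp3-2 and 43.4 FPKM in wild type, with q = 0.192 in the authors' deposited table. HSBP (AT4G15802), which binds HSFs and dampens them, had 84.3 FPKM in hdp3-2 and 96.9 FPKM in wild type, and was not called. The median over the 11 genes was 0.71 in hdp3-2 and -0.02 in asil1-2.

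Genes known to be activated by HSFs formed a list of 21, of which 11 of 20 tested rose in hdp3-2 and 3 of 16 tested rose in asil1-2, with 0 lower in either. Over all tested genes, 1.30% rose in hdp3-2 and 2.71% in asil1-2. The list was drawn up with earlier results known, so its counts are no independent sign of direction. HSP22.0 (AT4G10250) and AT1G71000, 2 of the 11, were listed at 0 in wild type and have no fold change. The median log2 fold change of targets with a value was 3.11 over 18 genes in hdp3-2 and 0.36 over 16 genes in asil1-2. HSP17.6A (AT5G12030), a small chaperone, had the largest fold change among called targets, with 90.6 FPKM in hdp3-2 and 0.592 FPKM in wild type, and with 6.43 FPKM in asil1-2 against 0.603 FPKM. Its calls are narrow, with q = 0.0441 in hdp3-2 and q = 0.0373 in asil1-2 in the authors' deposited tables, and both ended at q under 0.01. HSP90.1, HSP101 and HSP70 rose in hdp3-2 by 4.15 ± 0.31, 3.94 ± 0.33 and 2.83 ± 0.29 (SE) in log2, and HSP90.1 and HSP101 rose in asil1-2 by 0.92 ± 0.27 and 1.07 ± 0.30. HSP23.5 (AT5G51440), of mitochondria, rose by 3.38 ± 0.41 (SE) in hdp3-2 and stood at 3.88 FPKM in asil1-2 against 3.86 FPKM in wild type. FES1A (AT3G09350), a partner of HSP70, rose by 2.28 ± 0.30 (SE) in hdp3-2.

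Of the 20 targets tested in hdp3-2, 17 lay above wild type and 3 below, and 9 were not called. HSP17.6II (AT5G12020), a small chaperone gene picked with its values in view, had 19.99 FPKM in hdp3-2 and 0.174 FPKM in wild type, with q = 0.509 in the authors' deposited table. The small chaperone genes HSP17.6C (AT1G53540), HSP17.4 (AT3G46230) and HSP23.6 (AT4G25200), also picked afterwards, stood 108-fold, 79.99-fold and 92.4-fold above wild type in hdp3-2 without being called. Read as a normal z, the statistic called HSP17.6II and HSP17.6C. HSP18.2 (AT5G59720), picked in the same way, had 3.77 FPKM in hdp3-2 and 4.42 FPKM in wild type. GOLS1 (AT2G47180) and GOLS2 (AT1G56600), galactinol synthase genes picked likewise, had log2 fold changes of -0.37 ± 0.68 and -1.40 ± 0.72 (SE) in hdp3-2, neither of them called. APX2 (AT3G09640), an ascorbate peroxidase gene activated by HSFA2 in heat, stayed at 0.362 FPKM in hdp3-2 and 0.185 FPKM in wild type and was not tested.

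**Figure D4:**
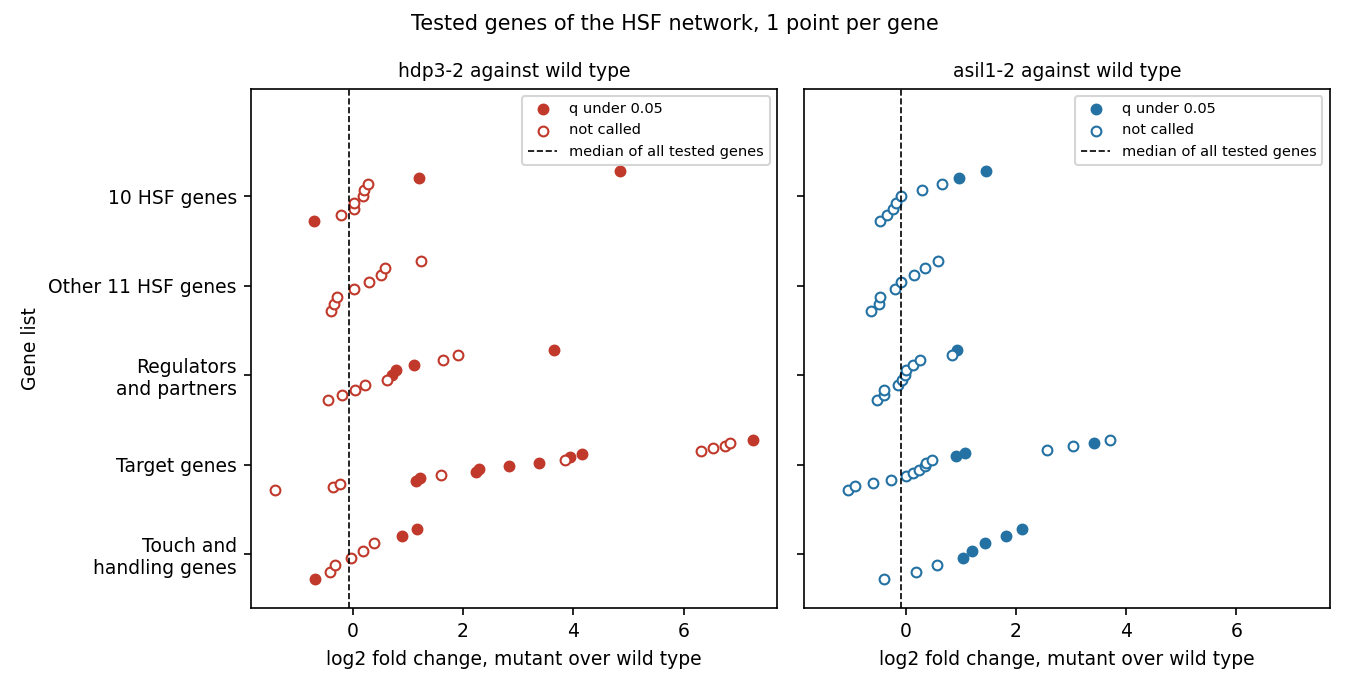
Log2 fold change over wild type (x) of every tested gene with FPKM above 0 in both genotypes, by list (rows), for hdp3-2 (left, red) and asil1-2 (right, blue); each point is 1 gene, filled where q is under 0.05, and the dashed line is the median of all tested genes. In hdp3-2 the filled target genes reach 7.26, with HSFA2 at 4.85 farthest to the right among the HSF genes, while in asil1-2 HSFA2 stands at 1.45.

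The genes whose pair of log2 fold changes lay nearest to that of HSFA2 were also heat response genes. Among 354 other genes called in both tables, the 4 nearest by Euclidean distance over the 2 comparisons were HSP90.1 (0.88 in log2), HSP101 (0.98), the small heat shock protein gene AT1G07400 (1.20) and ROF2 (1.31). AT1G07400 had 69.3 FPKM in hdp3-2, against 1.26 FPKM in wild type, while it had 5.95 FPKM in asil1-2 against 1.29 FPKM. The distance rests on 2 comparisons that share wild type, so it is a description.

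Among 8 genes that respond to touch and handling, 2 rose, 1 fell and 5 were not called in hdp3-2, with a median log2 fold change of 0.08. There 1.30% of all tested genes rose and 1.78% fell. In asil1-2, 5 rose and 0 fell, with a median of 1.12, where 2.71% of all tested genes rose. ZAT10 (AT1G27730), a zinc finger repressor of rapid stress responses, had 12.2 FPKM in hdp3-2, against 10.7 FPKM in wild type, while it had 46.9 FPKM in asil1-2 against 10.9 FPKM. CML38 (AT1G76650), a calcium-binding protein gene, rose by 1.17 ± 0.37 (SE) in log2 in hdp3-2 and by 1.82 ± 0.32 (SE) in asil1-2. Summed levels of the 8 genes were 2826 FPKM in hdp3-2, against 2150.2 FPKM in wild type. In asil1-2 they were 2741 FPKM, against 2191 FPKM in wild type. Most of each sum was TCH4, which was not called in either mutant (2202 FPKM in hdp3-2, against 1689 FPKM in wild type). The part of touch and handling in the HSF values was not tested.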

How the data were processed

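Per the submitters' processing notes the authors used TopHat2, Cufflinks, Cuffdiff and deepTools with TAIR10, and neither versions nor options are known from the labels. They deposited 1 table per mutant in Cuffdiff's layout. The FPKM values were made by the authors, scaled within each table, with a single value per gene and genotype. The score in the deposited tables is the authors' test statistic, 0 where no test was made. The p-value and q-value columns are the authors' Cuffdiff results, per the file headers. No counts or values per library are used, so depth is unknown. Since nothing states that libraries came from separate cultures, their p-values reflect library spread that may be technical.

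Log2 fold changes were recomputed from the deposited FPKM values, because the deposited fold column holds spreadsheet errors in some rows. The SE is the fold change over the statistic. The z that the authors' p implies is 1.41 times the statistic at the median in hdp3-2 and 1.42 times in asil1-2, so the SE from the statistic is the wider one for most genes. For strongly changed genes at the smallest p it is the narrower one, as for HSFA2 in hdp3-2 (0.43, against 1.20 from p). A 95% interval is 1.96 SE on each side. Differences between mutants were tested per gene with a z test over 19977 genes with Benjamini-Hochberg adjustment, and this test was tested on simulated data. The members and gene lists were chosen with earlier results of these data known. All 10 members were named. Of the other lists, the called genes with the largest changes were named, at most 6, and the 4 genes nearest to HSFA2. Further genes of these lists, among them HSBP and APX2, were named outside this rule, with their values known. Alternatives were a q under 0.01, a 2-fold minimum, an FPKM minimum of 1, a recomputed adjustment, a normal reading of the statistic, pseudocounts of 1 and 0.1, centring on the median, an SE from p, 0.5 times the summed variance, and, added after seeing the data, the difference test with the SE from p. Upstream windows came from RefSeq on TAIR10.1. All 27973 nuclear loci of the tables with a gene entry there overlapped it on the same chromosome. Figures were drawn with matplotlib 3.10.9, and values were computed in Python 3.11.15 with SciPy 1.17.1, NumPy 2.4.6 and pandas 2.3.3.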

Additional observations from a re-analysis of the deposited data

Results flagged for a closer look

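Of the HSF genes, HSFA2 differed between the mutants, with a log2 fold change higher by 3.40 in hdp3-2 than in asil1-2 (z test on the SE from the authors' statistics across 19977 genes, Benjamini-Hochberg adjusted p = 4.75e-05). The same test separated 6 genes among the other 11 HSF genes, the 21 targets and the 11 regulators and partners. All 6 had the larger increase in hdp3-2. Over all genes the test called 26 of 19977, or 0.130%. These lists were drawn up with earlier results known, so the count is a description. On the authors' statistics the difference was 3.23 for HSP90.1 (adjusted p = 5.02e-11), 2.87 for HSP101 (3.31e-07), 2.72 for ROF2 (1.56e-07) and 2.47 for HSP70 (2.78e-07). It was 3.38 for the mitochondrial HSP23.5 (3.76e-05) and 1.93 for FES1A (0.00322). With the SE from the authors' p, HSP23.5 was the only one of the 7 still called (adjusted p = 0.0459), and the other 6 had adjusted p from 0.151 to 0.473, the highest being that of HSFA2. All 7 have the smallest p of the authors' test, 5e-05, in hdp3-2, so there their SE from p can only be an upper limit. Which of the 7 stays called on that SE therefore does not rank them. No cause of these differences was tested.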

How the results depend on the processing

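The calls of HSFA2 in both mutants and of HSFA7A in hdp3-2 held under all 5 alternative call rules. Of these rules, the q under 0.01, the 2-fold minimum, the FPKM minimum and the recomputed adjustment could not have ended them, given their q, fold changes and levels. Only the normal reading of the statistic could have. The recomputed adjustment called 622 genes in hdp3-2 and 1702 in asil1-2, the same numbers as the authors' q. With a 2-fold minimum 1 member, HSFA2, was called in asil1-2, since HSFA7A lay just under it. Of the targets, 8 were called in hdp3-2 at a q under 0.01 and 9 with the normal reading, against 11, and 2 in asil1-2 at a q under 0.01, against 3. Among the regulators and partners 2 genes were called in hdp3-2 at a q under 0.01, with a 2-fold minimum and with the normal reading, and 0 in asil1-2 with a 2-fold minimum. The normal reading called 147 genes in all in hdp3-2, against 622 by the authors' q, and 438 in asil1-2, against 1702. The q under 0.01 called 341 and 918, and the 2-fold minimum 274 and 453. The difference of HSFA2 between the mutants was called at an adjusted p under 0.01, with an FPKM minimum of 1 and with 0.5 times the summed variance. Given its adjusted p of 4.75e-05 in the z test, the first and the last of these settings could not have ended the call. With the SE from the authors' p, chosen after seeing the data, 0 members were called and 36 of 19976 genes in all. For HSFA2 that SE can only be an upper limit, since its p is the smallest that the authors' test gave. The number of all genes called grew to 125, against 26, with 0.5 times the summed variance. No paired analysis was possible because the tables hold no values per library, and for the same reason no library could be left out. The depth is unknown, so the limit for low members such as HSFA7B cannot be given.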
